A study of Mus musculus with 12 samples.

Results

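The Dlk1-Dio3 region of mouse chromosome 12 encodes one of the largest groups of microRNAs (miRNAs) in the genome. The members described here are miRNAs of the region, without the miR-376 family, the miRNAs antisense to Rtl1 and miR-453. They were chosen by number from the names on the array, with any letter, star or arm ending, and without use of their intensities. This gave 92 of the 1096 miRNA names on the array, which lie on 47 hairpins, and 52 of them were bright enough to be tested among 370 miRNAs. Quadriceps muscle was taken at postnatal day 7 from 6 mice null for cofilin-2 (KO1 to KO6), a muscle protein that severs and depolymerises actin filaments, and from 6 wild-type littermates (WT1 to WT6). The question was which miRNAs change when cofilin-2 is missing. All 12 mice were C57Bl/6, each gave 1 sample, and the labels name no treatment; how the null allele was made is not given in the sources used here. The KO muscle is already diseased at this age. A value is the normalized intensity of a probe on an array for miRBase version 17, on a linear scale, and intensities of different probes cannot be set against each other. The labels give the dye Cy5 for every WT and Cy3 for every KO sample, so dye and genotype cannot be told apart. Whether a WT and a KO sample were put together on the same array is not stated. Cfl2 is an mRNA and is not on a miRNA array, so the genotypes were not checked from these values. The tissue is a mixture of cells, and fewer cells of a type and less RNA per cell cannot be told apart.

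The region is imprinted: protein genes such as Dlk1 are read from the paternal chromosome, and long noncoding RNAs (Meg3, Rian, Mirg) with the miRNAs from the maternal one. A hairpin is cut from the long transcript and leaves a duplex with a 5p and a 3p arm, of which usually one is retained in the silencing complex, and bases 2 to 8 of the retained arm (the seed) pair with target mRNAs. The miRNAs of the region are abundant in embryonic and newborn muscle and in brain. In the array's names a star marks the arm that was then taken to be the minor one.

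The sequences below are those of the members with the clearest differences between or within groups. They come from RefSeq (GRCm38.p6), where 78 of the 92 names and 48 of the 52 tested names were matched. Each runs 5′ to 3′ with the seed in capitals. The first 3 were lower in KO at an unadjusted p under 0.05, miR-381 was higher, and miR-381* is the other arm of its hairpin.
miR-370: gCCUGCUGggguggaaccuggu
miR-1188: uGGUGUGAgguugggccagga
miR-337-3p: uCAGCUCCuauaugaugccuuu
miR-381: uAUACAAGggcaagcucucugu
miR-381*: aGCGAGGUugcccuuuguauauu
Among the tested names with a sequence, 2 shared a seed, namely miR-379* and miR-411*.
miR-379*: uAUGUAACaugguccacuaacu
miR-411*: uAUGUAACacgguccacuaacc
The next 3 are printed for their base composition, on which single samples differed. miR-369-3p has the lowest share of G and C among the tested members, 23.8%, miR-495 has 36.4%, and miR-341* has the highest, 76.2%.
miR-369-3p: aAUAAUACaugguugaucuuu
miR-495: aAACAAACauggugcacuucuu
miR-341*: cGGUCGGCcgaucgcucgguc

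Of 1128 pairs of tested members, 3 had 18 or more identical bases when laid side by side without gaps. The pair miR-379* and miR-411*, printed above, had 20 of 22. The other two pairs are printed because a probe for one may also bind the other, which was not tested; here capitals mark the bases that are identical within the pair.
miR-300: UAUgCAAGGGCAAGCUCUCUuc
miR-381: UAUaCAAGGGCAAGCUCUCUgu
miR-495: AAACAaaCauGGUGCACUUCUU
miR-543: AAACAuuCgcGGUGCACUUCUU
miR-300 and miR-381 had 19 identical bases of 22 and differ inside the seed. miR-495 and miR-543 had 18 of 22, with differences in the seed as well.

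In the normalized table the summed intensity of a sample was 594311 to 636136, and that of the 92 members 57149 to 74903. The muscle miRNAs miR-1a (39535 to 71199), miR-133a, miR-133b and miR-206 (21266 to 29194) were bright in all 12 samples, while the neuronal miR-124 (3 to 35) and miR-9 (0 to 5) and the liver miRNA miR-122 (2 to 16) were near 0. The third neural marker on the list, miR-128, was bright, at 865 to 1508 in WT and 699 to 1205 in KO (log2 change -0.49, unadjusted limma p 0.0387, adjusted p 0.22); miR-128 is found in muscle too. For the other cell types a piece of muscle can hold, the summed level of 5 fibroblast and mesenchyme markers was 19629 to 26313 in WT and 17882 to 26229 in KO. That of 6 blood markers was 102 to 475 in WT and 51 to 372 in KO, with miR-144 and miR-142-3p at 0 in at least 1 sample. The endothelial miR-126-3p lay between 2230 and 4741 in WT and between 760 and 2705 in KO. Its log2 change was -1.2, with an unadjusted limma p under 0.05 and an adjusted p of 0.0615. The other endothelial marker on the list, miR-126-5p, was too dim to test, at 2 to 6 in WT and 1 to 5 in KO. The part of these cells in the results below was not tested.

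Few of the members differed between KO and WT, and none passed the test after adjustment. In limma, 4 of the 52 tested members had an unadjusted p under 0.05, or 7.69%, against 19.5% of all 370 miRNAs. The 4 were miR-381, which was higher in KO (background in that direction 9.73%), and miR-370, miR-1188 and miR-337-3p, which were lower (background 9.73%). None passed after Benjamini-Hochberg adjustment over the 370 (smallest adjusted limma p 0.132, miR-370), against 1.35% of all miRNAs. None had groups that did not overlap, against 2.43%. The median log2 change of the members, KO minus WT, was -0.0775, beside -0.0757 over all miRNAs tested. It was positive for 19 members and negative for 33, with extremes of -0.97 (miR-1188) and 0.92 (miR-380-3p).

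**Figure D1:**
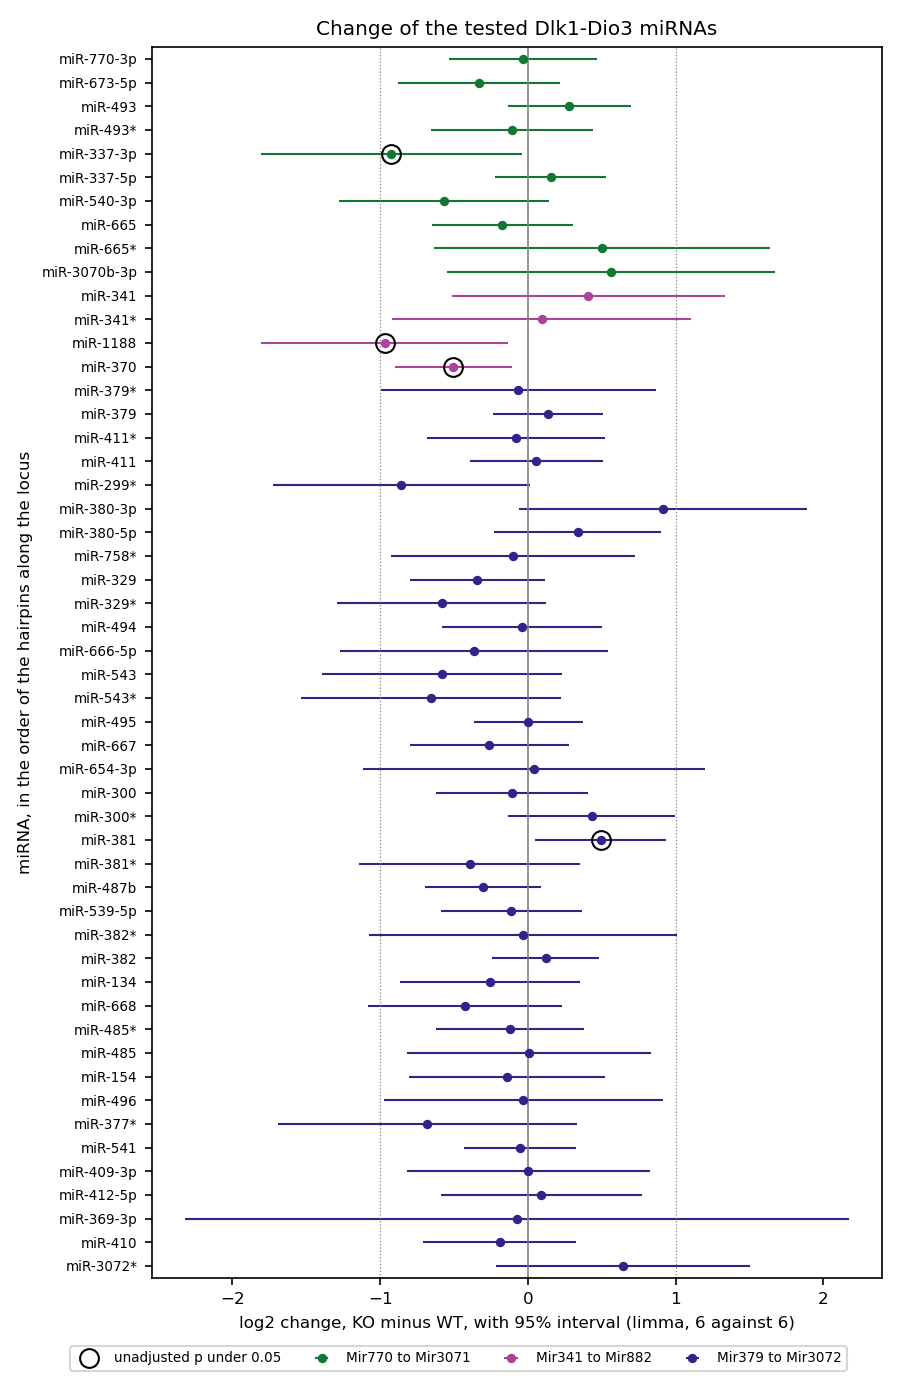
Change of each tested member between KO and WT. The x axis is the log2 change (KO minus WT), the bars are 95% intervals from limma (6 samples against 6), the y axis lists the 52 members in the order of their hairpins, colours mark the 3 stretches of the region and black rings the 4 members with an unadjusted p under 0.05. Most intervals include 0, and 32 of 52 lie wholly between -1 and 1.

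The intervals say how large a change could have been missed. The 95% interval of the log2 change reached 0.36 to each side for the most precisely measured member and 2.25 for the least (miR-369-3p), with a median of 0.66. For 32 of the 52 members, 10 of the 12 brightest among them, it lay wholly between -1 and 1, so that a log2 change of 1 or more in either direction fell outside it. Only 8 members had an interval inside 1.5-fold in both directions. By position, the 10 tested members from Mir770 to Mir3071 had a median log2 change of -0.07, the 4 from Mir341 to Mir882 one of -0.21, and the 38 from Mir379 to Mir3072 one of -0.08.

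The members with the brightest probes did not pass the test in either direction. miR-495, which has been linked to vessel growth after ischaemia, lay between 10593 and 13795 in WT (median 12270) and between 9182 and 14098 in KO (median 12374). KO1 was the lowest and KO6 the highest of all 12 samples, and the other KO samples lay inside the WT range. Between KO and WT the log2 change was 0.00 (SE 0.17, adjusted limma p 0.998; 95% interval -0.37 to 0.37). miR-379, from the first hairpin of the longest stretch, was 8222 ± 1070 (SD, n = 6) for WT against 9042 ± 1230 (SD, n = 6) for KO. Its log2 change was 0.14 (95% interval -0.24 to 0.51), and 2 KO samples, KO2 and KO4, were above every WT sample.

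miR-329, which like miR-495 has been linked to vessel growth, lay between 3153 and 5548 in WT (median 4547) and between 2527 and 4504 in KO (median 3364). KO1 and KO2 lay below every WT sample, and the log2 change was -0.34 (95% interval -0.80 to 0.11; adjusted limma p 0.396). miR-410 was between 1837 and 4598 in WT and between 2432 and 3760 in KO, a log2 change of -0.19 (95% interval -0.71 to 0.33). All KO values lay inside the WT range, whose lowest value, in WT4, stood far below the next (3723). Of the KO samples only KO4 (3760) reached the WT values other than that of WT4. Without WT4 the log2 change was -0.39 (unadjusted limma p 0.0587, adjusted p 0.268), past no threshold. miR-382 changed by 0.12 (95% interval -0.24 to 0.48), with 2628 to 3583 in WT and 2719 to 3872 in KO. miR-541 changed by -0.06 (95% interval -0.44 to 0.32), with 1897 to 3087 in WT and 1959 to 2545 in KO. For miR-382 and miR-541 the groups overlapped nearly throughout.

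miR-487b was lower in KO by the medians, at 2547 in WT (1944 to 2672) and 1957 in KO (1566 to 2339). KO2, KO3 and KO4 lay below every WT sample. This gave a log2 change of -0.31 (SE 0.18; 95% interval -0.70 to 0.09). It did not pass in limma (adjusted p 0.379), while the exact permutation test over samples gave p = 0.0455, two-sided and not adjusted. miR-539-5p lay between 1489 and 2204 in WT and between 1177 and 2575 in KO, with 2 KO samples above and 2 below every WT sample (log2 change -0.11; 95% interval -0.59 to 0.36). miR-337-5p lay between 1248 and 1849 in WT and between 1467 and 2130 in KO (log2 change 0.15; 95% interval -0.22 to 0.53).

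miR-134 is known in neurons for restraining Limk1, the kinase that inactivates cofilins. It lay between 1317 and 2947 in WT (median 1753) and between 1095 and 3221 in KO (median 1350). KO1 was the highest of all samples and WT1 the next, while KO3, KO4 and KO5 lay below every WT sample. Its log2 change was -0.26 (SE 0.28; 95% interval -0.86 to 0.35; adjusted limma p 0.685). Without KO1 the log2 change was -0.47, still past no threshold.

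miR-3072*, from the last hairpin of the group, was variable in both groups, with 1128 to 3994 in WT (median 1863) and 1289 to 5220 in KO (median 3794). KO3, KO4 and KO6 were above every WT sample and KO1 was near the bottom of the WT range. Its log2 change was 0.65 (SE 0.40; 95% interval -0.21 to 1.51; adjusted limma p 0.396). Without KO1 it was 0.91 (unadjusted limma p 0.0208, adjusted p 0.0976), with the replicate block its unadjusted limma p was 0.0414, and with array weights it was 1.1 (adjusted limma p 0.0128). miR-341* was between 1398 and 4092 in WT and between 1027 and 3147 in 5 KO samples, but reached 10600 in KO4. Its log2 change was 0.09 (95% interval -0.92 to 1.11) with KO4 and -0.31 without it.

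The 3 members that were lower at the unadjusted threshold were dim. miR-370, known in liver for acting on Cpt1a, an enzyme of fatty acid oxidation, lay between 70 and 107 in WT (median 75.5) and between 49 and 74 in KO (median 53). Of the 6 KO samples 5 lay below every WT sample, and KO3 alone, at 74, reached into the WT range. The log2 change was -0.51 (SE 0.18; 95% interval -0.90 to -0.11), with an unadjusted limma p of 0.0161 and an adjusted p of 0.132. The exact permutation test gave p = 0.00649, where 0.00216 is the smallest that 924 assignments allow. miR-370 passed the unadjusted threshold in 22 of the 23 alternative settings that tested it, those that leave out 1 sample included. The exception, limma with array weights, gave -0.27.

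miR-1188, from the hairpin before Mir370, lay between 52 and 142 in WT (median 73.5) and between 16 and 91 in KO (median 37). KO2, KO3, KO5 and KO6 were below every WT sample, and KO1 and KO4 were within the WT range. Its change was -0.97 on the log2 scale (SE 0.39; 95% interval -1.81 to -0.14), with an unadjusted limma p of 0.0259 and an adjusted p of 0.171. This call was lost without WT1, which held the highest value (log2 change -0.80), without KO5 (-0.89) and without KO6 (-0.71). Without KO1 the change was -1.21 and passed after adjustment (adjusted limma p 0.0387). Its other arm, miR-1188*, was too dim to test, at 21 to 34 in WT and 17 to 45 in KO.

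miR-337-3p lay between 45 and 126 in WT (median 87) and between 24 and 110 in KO (median 38). The WT values fell apart, with WT2, WT3 and WT5 at 108 to 126 and the other 3 at 45 to 66. KO1, KO2 and KO3 lay below every WT sample, and KO6, at 110, was near the top of the WT range. The log2 change was -0.92 (SE 0.41; 95% interval -1.81 to -0.04), with an unadjusted limma p of 0.0421 and an adjusted p of 0.232. The exact permutation test gave p = 0.0801, and only 13 of 23 alternative settings put it past the unadjusted threshold. Among these, array weights gave -1.38 (adjusted limma p 0.00819), and leaving out KO6 gave -1.21 (unadjusted limma p 0.00555, adjusted p 0.0731).

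**Figure D2:**
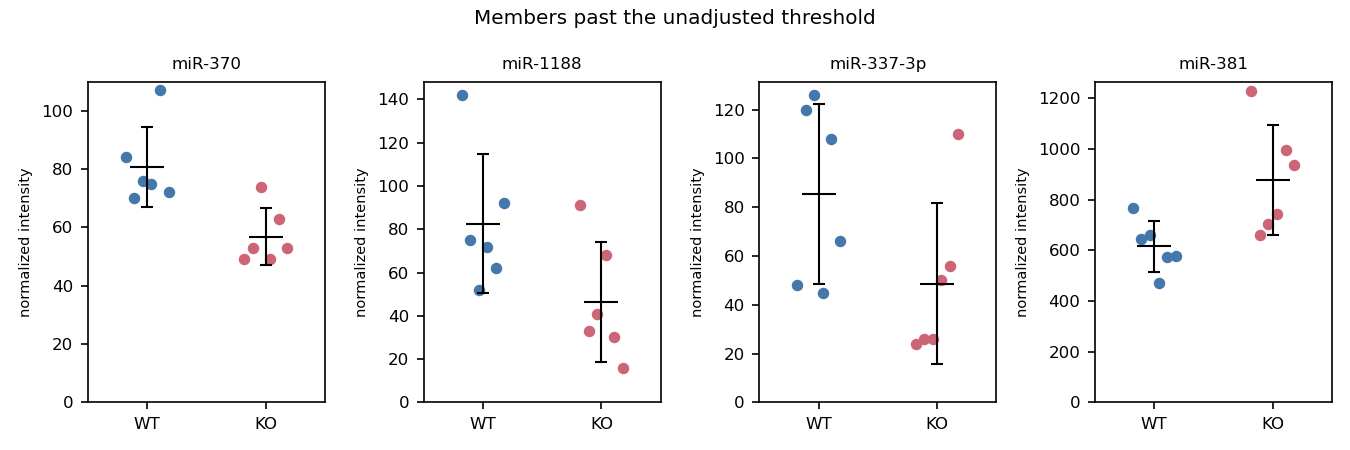
Normalized intensity (linear, y axis from 0) of the 4 members with an unadjusted p under 0.05, in 6 WT (blue) and 6 KO (red) samples in the order of their numbers; the horizontal mark is the mean and the bar 1 SD. For each of the 4 at least 1 KO sample lies within the WT range, and the first 3 panels stay under 150.

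miR-381 was the only tested member that was higher in KO at the unadjusted threshold. It lay between 470 and 767 in WT (median 611) and between 661 and 1229 in KO (median 840). KO1, KO5 and KO6 were above every WT sample and the other 3 lay within the upper part of the WT range. The log2 change was 0.49 (SE 0.21; 95% interval 0.05 to 0.94), with an unadjusted limma p of 0.0318 and an adjusted p of 0.202; the exact permutation test gave p = 0.0195. The direction held in all 24 alternative settings, from 0.33 to 0.61, but the unadjusted threshold was passed in 14 of them. It was lost on leaving out any one of WT4, WT5, WT6, KO1, KO5 or KO6, where the change was 0.39 to 0.48.

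The other arm of the hairpin was not higher in KO. miR-381* lay between 100 and 306 in WT (median 139) and between 74 and 257 in KO (median 102), a log2 change of -0.39 (SE 0.35; 95% interval -1.14 to 0.36; adjusted limma p 0.599). Within a sample, the log2 ratio of the intensities of miR-381 and miR-381* ran from 1.33 to 2.23 in WT (mean 1.96 ± 0.36, SD, n = 6) and from 2.26 to 3.33 in KO (mean 2.85 ± 0.45, SD, n = 6). The lowest ratio was that of WT1 and the lowest of KO was that of KO1, the samples in which both arms were brightest within their group. The groups did not overlap, and the difference was 0.89 (exact permutation test, two-sided, p = 0.00216, the smallest possible). Of 57 pairs of arms on the whole array, 1.75% had groups that did not overlap, which is this hairpin alone, and 8.77% had an exact p under 0.05. Adjusted over the 57 pairs, the exact p was 0.123 and did not pass. A pair alone at the smallest possible p cannot pass over 57 pairs, so this adjustment could not decide on the difference. Without any 1 sample the difference lay between 0.76 and 1.0. Groups that are apart with all samples cannot overlap when 1 is left out, so their separation there was not a test. The gap was narrow, from 2.23 in WT to 2.26 in KO, and after quantile normalization the groups overlapped. A shift of this ratio would mean that the intensities of the arms changed unequally, and would not show which of them changed. Dye and genotype cannot be told apart in it.

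A like picture was seen against neighbours, which is given as a description only. miR-300, which shares 19 of 22 bases with miR-381 and comes from the hairpin just before it, was 398 to 759 in WT and 350 to 830 in KO, with a log2 change of -0.11 (95% interval -0.62 to 0.40). The log2 ratio of miR-381 over miR-300 ran from 0.02 to 0.25 in WT and from 0.30 to 1.09 in KO. Over miR-487b, from the hairpin just after, it ran from -2.20 to -1.75 in WT and from -1.43 to -0.80 in KO. In both ratios every KO sample was above every WT sample, as was so, in one direction or the other, for 13 of the 1326 pairs of tested members (0.98%), 6 of them pairs with miR-381 among its 51 partners. Both neighbours were chosen after their values were seen, and miR-487b was itself lower in KO by its median. miR-379* and miR-411*, with the same seed, showed no such shift: their log2 ratio ran from -2.24 to -0.96 in WT and from -2.29 to -0.94 in KO. That of miR-495 over miR-543 ran from 4.66 to 6.82 in WT and from 5.87 to 6.65 in KO, and the groups overlapped.

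**Figure D3:**
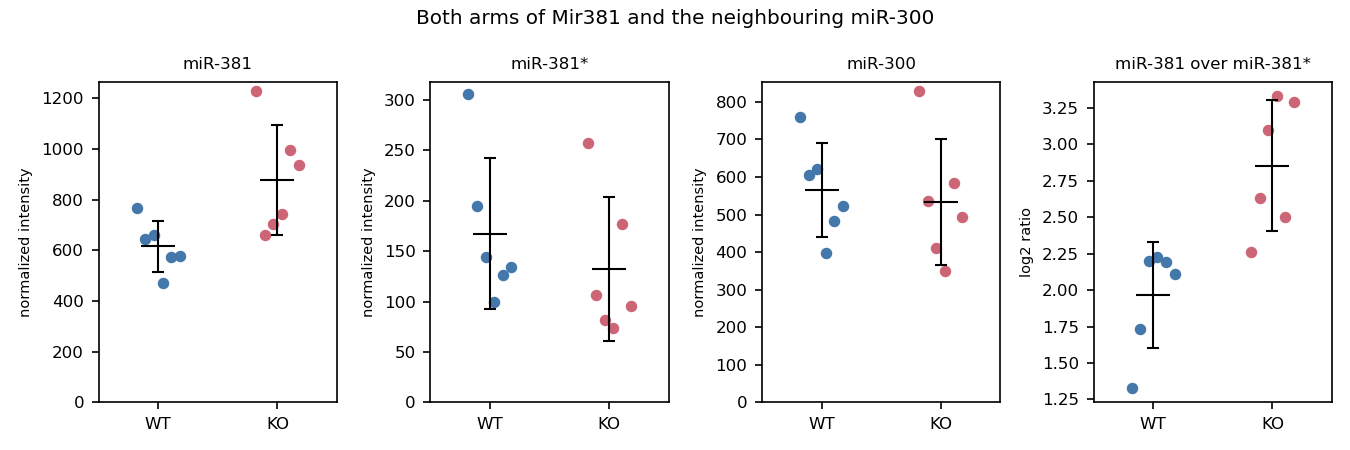
Normalized intensity (linear, y axis from 0) of miR-381, miR-381* and miR-300, and the log2 ratio of miR-381 over miR-381* (right panel, axis not from 0), in 6 WT (blue) and 6 KO (red) samples in the order of their numbers; the horizontal mark is the mean and the bar 1 SD. Each of the 3 miRNAs overlaps between groups, whereas the ratio stays at or under 2.23 in WT and at or over 2.26 in KO.

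For 12 of the 13 hairpins with both arms among the tested members the groups' ratios overlapped. The arms of Mir337 came nearest: miR-337-5p over miR-337-3p had a mean log2 ratio of 4.30 ± 0.86 (SD, n = 6) for WT against 5.37 ± 0.90 (SD, n = 6) for KO. The exact permutation test gave p = 0.0606 (0.466 adjusted over the 57 pairs), and KO6 and KO5 lay within the WT range. The remaining differences ran from -0.67 (Mir665) to 0.24 (Mir329), with exact p values of 0.128 or more. In the fit with all 12 samples, no block and no array weights, none of the other tested star arms of the named members passed the test. miR-329* lay between 124 and 356 in WT (median 209.5) and between 99 and 308 in KO (median 119), with KO3, KO4 and KO6 below every WT sample. Its log2 change was -0.58 (95% interval -1.29 to 0.12; adjusted limma p 0.345), and without KO1, the highest KO sample, it was -0.82 and past the unadjusted threshold (unadjusted limma p 0.00928, adjusted p 0.0617). It also passed that threshold with the replicate block (unadjusted limma p 0.0295) and, after adjustment, with array weights (adjusted limma p 0.011). miR-379* changed by -0.06 (95% interval -0.997 to 0.87) and miR-411* by -0.08 (95% interval -0.69 to 0.52). miR-382* changed by -0.03 (95% interval -1.07 to 1.01), with values of 33 to 152 in WT and 22 to 163 in KO.

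The 28 tested members outside the 24 named by rule had log2 changes from -0.86 to 0.92, of which 10 were positive and 18 negative. Their smallest unadjusted limma p was 0.0526 and their adjusted p ran from 0.261 to 0.998. The extremes, picked here after their values were seen, were miR-299* and miR-380-3p. miR-299* lay between 556 and 1739 in WT and between 259 and 1262 in KO, with KO1, KO2 and KO3 below every WT sample (log2 change -0.86; 95% interval -1.73 to 0.01). miR-380-3p lay between 26 and 116 in WT and between 60 and 312 in KO, with KO5 and KO6 above every WT sample (log2 change 0.92; 95% interval -0.06 to 1.89). miR-494, known in muscle for acting on factors of mitochondrial biogenesis, was 1601 ± 499 (SD, n = 6) for WT against 1510 ± 312 (SD, n = 6) for KO, a log2 change of -0.04 (95% interval -0.58 to 0.50).

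Single samples stood apart for many members at once. Against each member's mean over the 12 samples, the median deviation of the 52 tested members was highest in WT1 (0.25 on the log2 scale) and KO1 (0.15) and lowest in KO2 (-0.28) and KO3 (-0.21). Over all 370 miRNAs the same medians were 0.08, 0.02, -0.06 and 0.03. KO1 and KO6 each held the highest value of 11 members and WT1 that of 10, while KO3 held none. KO1, KO2 and KO4 each held the lowest value of 8 members. The SD of the log2 values was greater in KO than in WT for 40 of the 52 members (medians 0.54 and 0.45), and for 291 of all 370 miRNAs (medians 0.61 and 0.42).

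**Figure D4:**
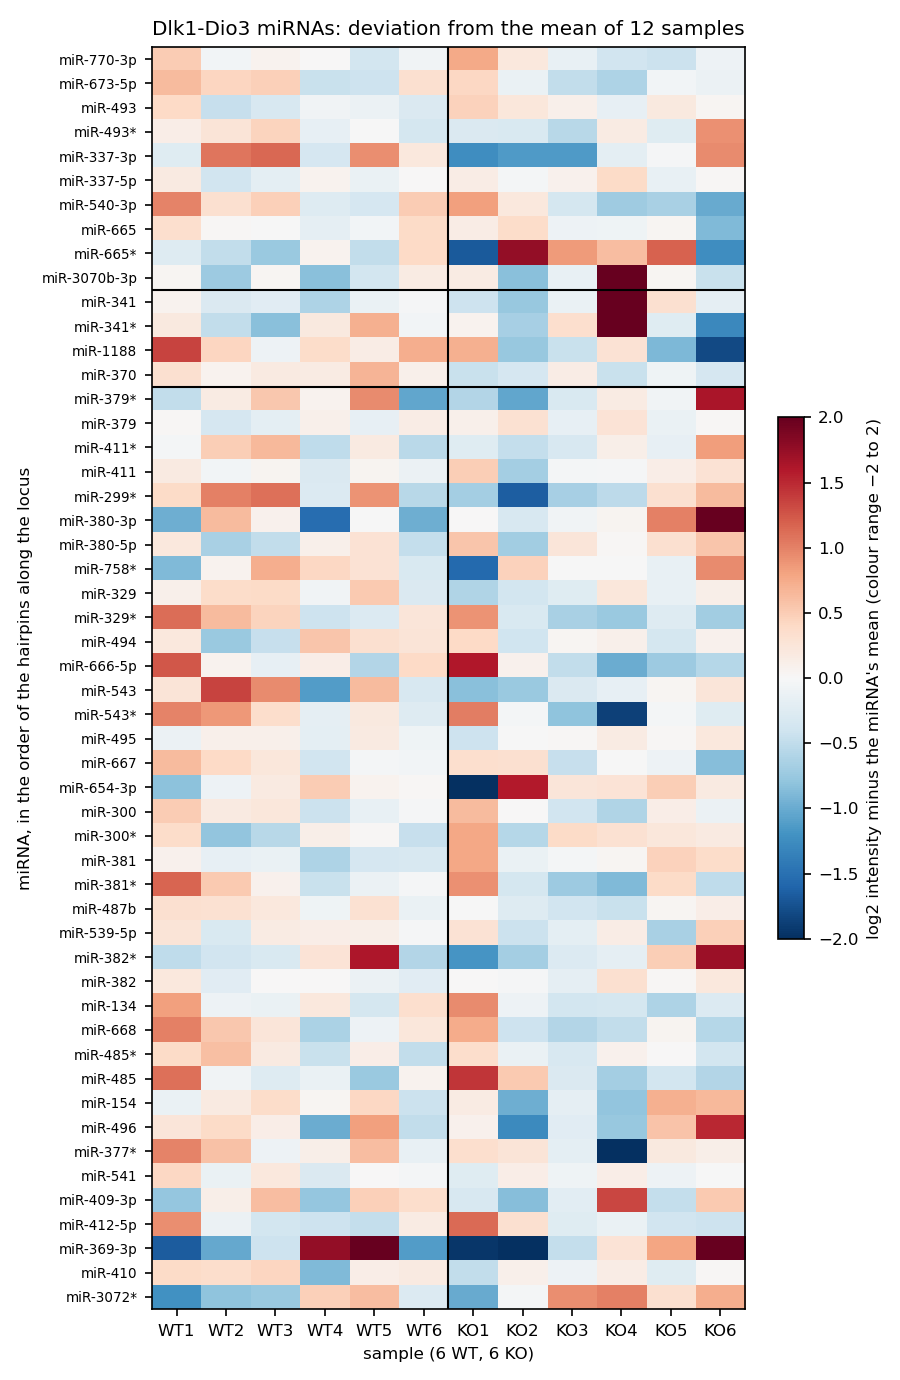
Log2 intensity of each tested member minus its mean over the 12 samples (colour, from -2 in blue to 2 in red, with values beyond shown at the end colours), by sample (x axis) and in the order of the hairpins (y axis, 52 members; horizontal lines part the 3 stretches). The columns of WT1, KO1 and KO6 stand out, as do miR-341, miR-341* and miR-3070b-3p in KO4.

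KO4 held values far above the other samples for 3 members, and far below them for miR-377* (5 against 29 to 66). miR-341 was 160 in KO4 against 18 to 38 in the other KO samples and 20 to 32 in WT. Its other arm miR-341* was 10600 there against 1027 to 3147 in the other KO samples, and miR-3070b-3p was 176 against 13 to 26 in KO and 13 to 26 in WT. The hairpins Mir341 and Mir3070b are not next to each other, and Mir1188 and Mir370, the hairpins after Mir341, were at 68 and 49 in KO4, within the range of the other KO samples. miR-341 and miR-3070b-3p were bright enough to be tested only through this sample: without KO4, 50 members were tested and both were left out. The log2 changes with KO4 were 0.41 (95% interval -0.52 to 1.33) for miR-341 and 0.56 (95% interval -0.55 to 1.67) for miR-3070b-3p.

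The deviations of KO6 followed base composition. Across the 48 tested members with a sequence, Spearman's rho between the deviation in a sample and the percentage of G and C in the mature sequence was -0.70 in KO6, -0.42 in WT5 and -0.31 in KO5, and it was 0.52 in WT6, 0.41 in WT1, 0.33 in KO1 and 0.32 in KO2. In the other 5 samples it lay between -0.13 and 0.07. The points of a sample share its RNA and its array, so this is a description. Of the 7 members under 40% G and C, all 7 were above their mean in KO6, with a median deviation of 1.64, and of the 10 members of 60% or over none was (median deviation -0.71). In WT1 and KO1 the same 10 members had median deviations of 0.57 and 0.52. miR-369-3p, chosen here after its values were seen, was 526 in KO6 and 5 to 60 in the other KO samples, and 223 and 117 in WT5 and WT4 against 11 to 26 in the other WT samples. Across 38 miRNAs outside the list whose names give their arm, rho was -0.14 in KO6, -0.58 in WT5, 0.28 in WT6 and 0.40 in KO1. It was -0.02 in WT1, -0.39 in WT4, -0.15 in KO5 and 0.13 in KO2, and between -0.11 and 0.08 in the other 4 samples, so that for KO6, WT1 and WT4 these miRNAs and the members differed in rho by more than 0.4. miR-370 and miR-1188, lower in KO, hold 68.2% and 61.9% G and C, miR-337-3p 40.9% and miR-381 45.5%; the part of base composition in their changes was not tested.

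**Figure D5:**
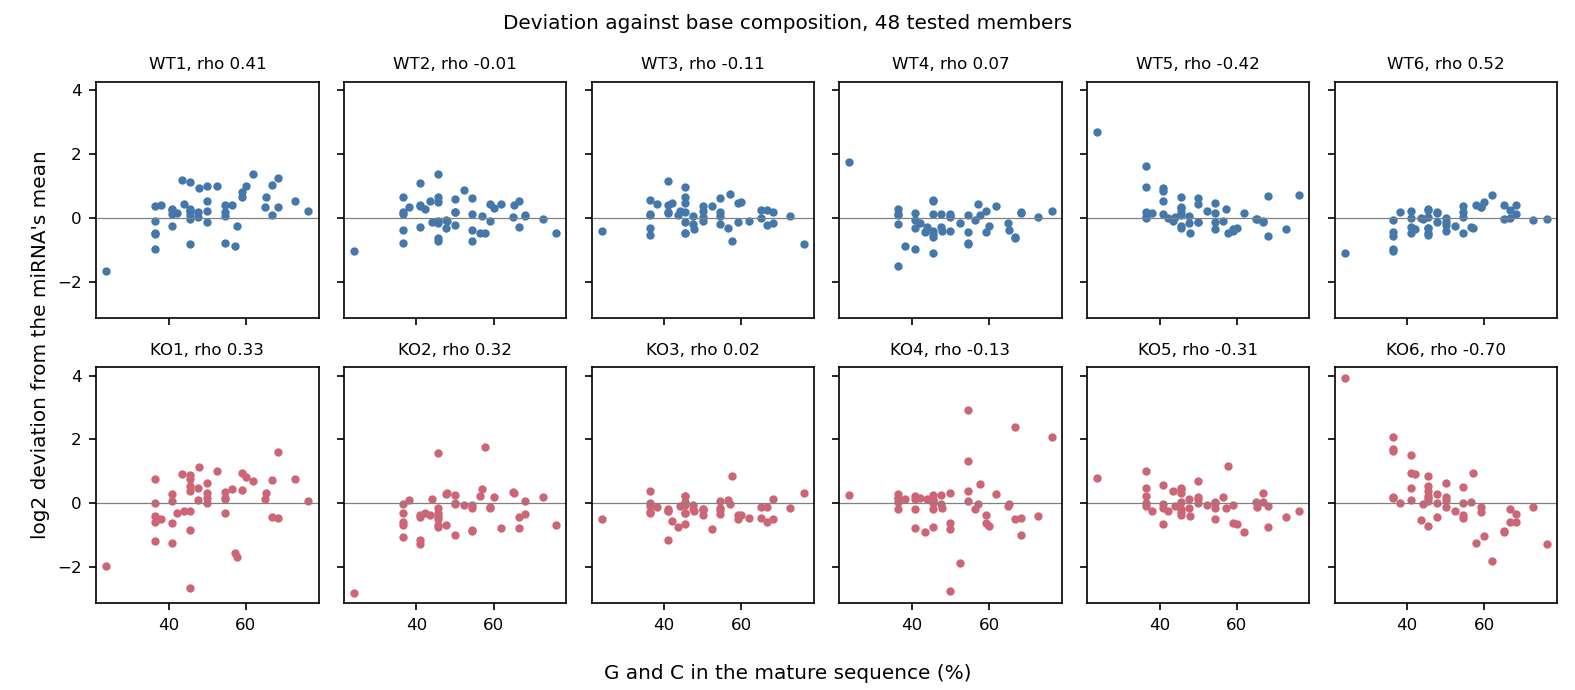
Log2 deviation from the miRNA's mean over 12 samples (y axis) against the percentage of G and C in its mature sequence (x axis), for the 48 tested members with a sequence (points), in 6 WT (blue) and 6 KO (red) samples; the title of each panel gives Spearman's rho. The points fall from left to right most steeply in KO6 (rho -0.70) and rise in WT6 (0.52).

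The 40 members left out of the test had mean intensities of 2.17 to 30.2 (median 14.2), and 25 of them stayed under 32 in every sample. Of the others, miR-494* reached 149 in KO1 alone and was 4 to 13 in the remaining samples. For 8 hairpins (Mir3070a, Mir3071, Mir882, Mir1197, Mir323, Mir679, Mir1193 and Mir544) no name was tested. Just inside the filter were miR-3070b-3p, which KO4 carried, and miR-377*, with 30 to 66 in WT and 5 to 42 in KO (log2 change -0.68; 95% interval -1.69 to 0.33). Just outside were miR-154* (15 to 47 in WT, 7 to 91 in KO) and miR-1188*. The other arms of the brightest members, miR-495*, miR-410*, miR-541*, miR-487b*, miR-539-3p and miR-134*, were all under the filter, as were miR-3072 and miR-370*.

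Among the 18 other names of the region, 10 were tested, and 2 were higher and 1 was lower at the unadjusted threshold, where 9.73% of all miRNAs passed in each direction. miR-376b rose, at 3011 ± 539 (SD, n = 6) for WT against 6308 ± 1150 (SD, n = 6) for KO. Its log2 change was 1.07 (adjusted limma p 0.0119), and every KO sample (5023 or more) was above every WT sample (3615 or less). miR-376c, at 0.70 (adjusted limma p 0.22), and miR-434-3p, at -0.72 (adjusted limma p 0.17), did not pass after adjustment. Mir654, between Mir376c and Mir376b in the order of the hairpins, held miR-654-3p, whose log2 change was 0.04 (95% interval -1.11 to 1.20). Mir667 and Mir300, the nearest tested hairpins to either side of the miR-376 hairpins, held miR-667 at -0.26 (95% interval -0.80 to 0.28) and miR-300 at -0.11.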

How the data were processed

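miRNAs were measured in quadriceps muscle of 6 KO and 6 WT mice on a commercial array, and all 12 samples were used by the genotype in their labels. The authors deposited 1 table of normalized intensity values, linear and in whole numbers; the normalization, background correction and spot averaging are not given in the sources used here. The methods call a miRNA altered at p under 0.05, and name no test for it. The mRNA arrays and qRT-PCR of the study were not analysed here.

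Before log2 conversion, 1 was set as the lowest value, and miRNAs with a mean intensity under 32 were left out. KO was compared with WT by limma 3.58.1 (lmFit, eBayes) in R 4.3.3 over all 370 miRNAs, two-sided, with Benjamini-Hochberg adjustment over the 370; a log2 change is KO minus WT. The fit was tested on simulated data. Exact permutation tests enumerated 924 assignments. The mice were collected as 6 littermate pairs, but the labels do not name the pairs, so neither limma nor the permutation tests used them. These tests also took no account of arrays that a WT and a KO sample may have shared. Intensities carry no read count, so that the number of mice, 6 in each group, limits the precision. The p-values set the group difference against the spread between samples. Each mouse gave 1 sample, so spread between mice and spread from the measurement cannot be told apart. Ratios of 2 arms were first planned with adjustment over the 13 hairpins of the members, and are given with adjustment over all 57 pairs of arms of the array.

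The members and lists were chosen with earlier results of these data known. Named were the 12 brightest tested members, those with an unadjusted p under 0.05, their other arms, members sharing bases 2 to 8 with another, and the 2 nearest to either side of the filter. Names without an arm were assigned one by miRBase usage (miR-299* and miR-3072* were not), and hairpin order and sequences are from RefSeq GRCm38.p6. miR-1 is listed on the array as miR-1a, and a blood marker, miR-486, was not found under that name. In other settings the values were raised to a floor of 32, a pseudocount of 50 was added, the filter was dropped or set to a mean of 100, and samples were median centred, quantile normalized or fitted with cyclic loess. Further ones used the replicate number as a block, a t-test, which the methods name for the mRNA arrays alone, a variance trend with robust estimation, or array weights, or left out each sample in turn. Chosen after seeing the data were leaving out KO1 and KO6 together, the family of 57 pairs, the ratios of all pairs of tested members, and the alternatives for the ratios and for G and C content. Plots were drawn with matplotlib 3.10.9.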

Additional observations from a re-analysis of the deposited data

Results flagged for a closer look

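In 7 of 50 groups of 6 samples (the named tested members in each genotype, and the members' median deviation), 1 sample lay far from the rest. The measure is the gap to the nearest sample as a share of the group's range on the log2 scale. For separate groups chance would give about 2.5. These groups share the same samples, and miR-341 and miR-3070b-3p were tested only through KO4. The count can therefore not be set against that number. KO1 was the lowest KO sample for miR-495 (0.65) and the highest for miR-134 (0.675) and miR-329* (0.707). KO4 was the highest for miR-341 (0.658) and miR-3070b-3p (0.734) and the lowest for miR-377* (0.826), where its value was 5 and the others were 29 to 42. In WT, miR-410 was lowest in WT4 (0.77).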

How the results depend on the processing

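Of 567 values of the 24 named members under alternative settings, 497 kept their direction and their side of the unadjusted threshold. The count of members past it, 4 (7.69%, against 19.5% of all miRNAs), was 1 with a mean intensity of at least 100 (miR-381; 2.56% against 22.2%), 7 with the replicate block (2 up; 13.5% against 24.1%), 19 with array weights (36.5% against 42.2%) and 10 without KO1 and KO6 (19.2% against 38.9%). On leaving out 1 sample it was 2 (without WT5; 3.85% against 19.4%) to 8 (without KO1; 15.1% against 29.2%); no member was up after median centring, and miR-299* took the place of miR-381. The adjusted count, 0 (against 1.35% of all miRNAs), was 11 with array weights (21.2% against 31.1%), which gave KO1 the least weight (0.156), 2 without KO1 and KO6 (miR-1188 and miR-665*; 3.85% against 22.0%) and 0 to 1 on leaving out 1 sample (1 without KO1, miR-1188; 1.89% against 13.2%). With the replicate block it was 0. The methods describe 6 pairs of mutant and littermate mice, and the labels do not say whether the sample numbers mark them. The correlation of deviations in same-numbered samples was over 0.1 in 3 of 6 cases (range -0.453 to 0.594), which cannot settle this. The fits other than the block took no account of pairs. The median log2 change lay between -0.197 (array weights) and 0.0141 (cyclic loess). The miR-381 ratio passed when adjusted over the 13 hairpins of the members alone (1 hairpin), a family chosen with results known. It did not pass over the 57 pairs (0 hairpins, difference 0.886), where a pair alone at the smallest possible exact p cannot pass. Among the 13 it did not pass after quantile normalization (0 hairpins, 0.886), nor without any one WT sample (0 hairpins). Over all 12 samples left out in turn, 0 to 1 hairpins passed, with differences of 0.759 to 1.0. Directions turned for members near 0: miR-382* with a floor of 32 (0.0661), a pseudocount (0.00641) and array weights (0.0741), miR-495 with median centring (-0.0434) and array weights (-0.00178), miR-341* with quantile normalization (-0.0132), and with cyclic loess miR-541 (0.0361), miR-379* (0.104) and miR-411* (0.0229). Leaving out 1 sample gave miR-382* -0.378 to 0.288, miR-495 -0.0392 to 0.0845, miR-341* -0.313 to 0.361, miR-541 -0.119 to 0.0211, miR-379* -0.398 to 0.136, miR-411* -0.257 to 0.0416 and miR-539-5p -0.221 to 0.00499. With only members of a mean of at least 100, rho with G and C was -0.575 in KO6 and 0.387 in WT6. The causes were not tested. Signal over background limits the dim members, whose background level is not given.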
